A study of Homo sapiens with 10 samples.

Results

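The genes described here are 10 components of TGF-beta and BMP signalling that endothelial cells use: the co-receptors ENG and TGFBR3, the type I receptors ACVRL1 and TGFBR1, the type II receptors BMPR2 and TGFBR2, the inhibitory SMADs SMAD6 and SMAD7, and the target genes ID1 and ID3. They were chosen by name, as 10 of the 60448 genes in the count table, and all 10 were among the 16310 genes with enough counts to be tested. Their mRNA was measured by RNA sequencing in 2 human endothelial lines, EA.hy926 and HMEC-1, with 5 libraries each from independent biological replicates. The line HMEC-1 comes from small vessels of the skin and was immortalised with the SV40 large T antigen. The other line, EA.hy926, joins endothelium of the umbilical vein to A549, a lung carcinoma line of epithelial origin, and so holds an epithelial parent. Both are labelled WT, were untreated and were grown to a confluent monolayer. EA.hy926 was grown in Advanced DMEM with 5% serum, and HMEC-1 in MCDB 131 with 10% serum, epidermal growth factor at 10 ng/mL and hydrocortisone at 1 µg/mL. Each tissue source is represented by 1 line, so line, tissue source and medium cannot be told apart in any difference below.

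TGF-beta and BMP ligands are dimers that bring type I and type II serine/threonine kinase receptors together. The type II receptor phosphorylates the type I receptor, which then phosphorylates receptor-regulated SMADs that enter the nucleus with SMAD4. Endothelial cells combine the BMP branch, in which ENG and ACVRL1 (ALK1) bind circulating GDF2 (BMP9) and BMP10 together with BMPR2 and act through SMAD1, SMAD5 and SMAD9, with the TGF-beta branch, in which TGFBR2 and TGFBR1 (ALK5) act through SMAD2 and SMAD3. SMAD6 and SMAD7 are induced by the pathway and inhibit it, SMAD6 mainly in the BMP branch and SMAD7 in both. Loss-of-function variants of ENG and ACVRL1 cause hereditary haemorrhagic telangiectasia, and those of BMPR2 cause pulmonary arterial hypertension.

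The promoter sequences of the inhibitory SMADs and of the ID genes are shown because these 4 genes are transcriptional targets of SMADs and because, within both pairs, the partners differed between the lines in unlike ways. The windows run 5′ to 3′ on the gene's strand from 250 bases before to 50 bases after a start site in the RefSeq annotation of GRCh38.p14. Capitals mark matches on either strand to GTCT, the short SMAD-binding element (AGAC on the other strand), and to TATAA, the TATA box core, and adjoining or overlapping matches form 1 run of capitals. RefSeq windows were found for 9 of the 10 genes, all but ACVRL1.
SMAD6, chr15:66701986-66702285 (+): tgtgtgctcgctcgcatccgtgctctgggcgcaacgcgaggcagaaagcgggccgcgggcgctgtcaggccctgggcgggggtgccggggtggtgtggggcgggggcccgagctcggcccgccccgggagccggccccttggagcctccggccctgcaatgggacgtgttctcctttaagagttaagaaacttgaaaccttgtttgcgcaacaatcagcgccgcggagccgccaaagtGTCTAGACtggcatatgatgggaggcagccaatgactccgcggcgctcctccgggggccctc
SMAD7, chr18:48950916-48951215 (-): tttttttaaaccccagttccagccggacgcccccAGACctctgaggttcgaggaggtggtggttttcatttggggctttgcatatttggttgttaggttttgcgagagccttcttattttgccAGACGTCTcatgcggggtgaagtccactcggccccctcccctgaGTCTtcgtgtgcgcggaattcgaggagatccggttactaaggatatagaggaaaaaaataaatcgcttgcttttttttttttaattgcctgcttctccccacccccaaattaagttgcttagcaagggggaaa
ID1, chr20:31605039-31605338 (+): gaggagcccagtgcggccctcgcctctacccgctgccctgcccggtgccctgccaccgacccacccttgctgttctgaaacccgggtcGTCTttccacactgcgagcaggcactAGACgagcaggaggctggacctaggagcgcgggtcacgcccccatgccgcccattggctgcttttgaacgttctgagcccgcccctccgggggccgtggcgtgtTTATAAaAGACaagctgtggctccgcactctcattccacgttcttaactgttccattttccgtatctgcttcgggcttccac
ID3, chr1:23559452-23559751 (-): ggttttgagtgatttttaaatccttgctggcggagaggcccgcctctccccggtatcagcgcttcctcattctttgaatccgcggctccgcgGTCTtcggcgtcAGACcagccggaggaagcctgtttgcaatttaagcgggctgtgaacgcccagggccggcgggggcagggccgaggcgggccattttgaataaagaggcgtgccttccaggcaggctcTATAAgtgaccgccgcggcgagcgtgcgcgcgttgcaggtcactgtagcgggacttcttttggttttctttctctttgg
The SMAD6 window held the palindrome GTCTAGAC, 2 adjoining SMAD-binding elements, at -12 to -5 from the start site. That palindrome stood in 71 of 34943 promoter windows of the same length (0.203%) and in none of the other 3 windows shown. RefSeq gave 3 windows for SMAD7, of which only the one nearest the gene start in GENCODE is shown. Matches in the rest of them were not listed gene by gene, so absence of the palindrome from the SMAD7 promoter is not established. The SMAD7 window held 4 single matches to GTCT, at -216, -127, -123 and -83, of which the middle pair adjoin in the order AGAC then GTCT. ID1 had 3 such matches, at -162, -136 and -25, and ID3 had 2, at -158 and -146. GTCT was in 84% of all windows, so its presence does not set these genes apart. A TATAA match lay at -29 to -25 in ID3 and, as a run that matches on both strands, at -32 to -27 in ID1, against 20.5% of all windows with a match. Neither SMAD window held TATAA, and GGCGCC, a GC-rich element of BMP-responsive genes found in 19.2% of windows, was in none of the 4. The windows of SMAD6, ID1 and ID3 were GC-rich (68%, 62.7% and 59.7% G or C), and that of SMAD7 was not (48.3%). A match describes letters only and was not tested as a binding site. The windows reach only from 250 bases before to 50 bases after the start, so a motif absent here may lie outside them.

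Total counts ranged from 34846046 to 39899324 in EA.hy926 and from 33391640 to 43877224 in HMEC-1, so that 3 counts corresponded to 0.0651 to 0.0904 CPM, the counts of a gene relative to the scaled size of its library. The lowest count of any of the 10 genes was 439, for SMAD6 in EA.hy926 replicate 2, so none was limited by detection. The label endothelial was checked with 11 markers, including PECAM1, CDH5, TEK, TIE1 and ERG, all of which were detected in both lines. Of these, 7 were higher in EA.hy926 past both thresholds given below, 3 were higher past the adjusted p alone, and KDR was not past it. Among all tested genes, 19.1% were higher and 16.4% lower past both thresholds, and 42.6% and 43.3% past the adjusted p. These shares are the background for all 3 marker lists. Their summed CPM lay between 4972 and 5641 in EA.hy926 libraries and between 1772 and 1824 in HMEC-1 libraries. Of 8 epithelial markers, summed at 1274 to 1388 and 424 to 486 CPM, the keratins KRT7, KRT8 and KRT18 carried nearly all counts, while GRHL2 was at 0 in every library and CDH1 and ESRP1 were at 0 in EA.hy926. Of the 5 epithelial markers tested, 4 were higher in EA.hy926 past the adjusted p and KRT19 was lower, at 0.132 ± 0.0565 against 3.56 ± 0.449 CPM. Of 7 mural and fibroblast markers, summed at 411 to 469 and 28.9 to 32.7 CPM, RGS5 made up most of the EA.hy926 sum and LUM was at 0 throughout. Of the 5 tested, RGS5 and ACTA2 were higher and PDGFRB and CNN1 lower in EA.hy926 past both thresholds, and MYH11 was lower past the adjusted p only. The summed levels of all 3 marker lists were thus higher in EA.hy926, as 7 of the 10 members were. For the mural and fibroblast list that sum rested on RGS5, and 3 of its 5 tested genes were lower past the adjusted p. The part of the 3 marker lists in the differences of the members was not tested. In bulk RNA a difference in the share of cells that express a gene and one in mRNA per cell cannot be told apart.

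EA.hy926 carried more mRNA of the BMP-branch receptors ENG and ACVRL1 and of the target ID1, each over 3-fold, and less of SMAD6 and of the other target ID3. The remaining receptors were higher in EA.hy926 by less than 2-fold, and no difference was detected for SMAD7. With edgeR's quasi-likelihood test at an adjusted p under 0.05, 9 of the 10 genes were called, 7 higher and 2 lower in EA.hy926, where 85.8% of all tested genes were called, 42.6% higher and 43.3% lower. With the added threshold of an absolute log2 fold change (log2FC, EA.hy926 over HMEC-1) above 1, 5 of the 10 were called, ENG, ACVRL1 and ID1 higher and SMAD6 and ID3 lower, against 35.5% of all genes, 19.1% higher and 16.4% lower. The CPM ranges of the lines did not overlap for 9 of the 10 genes, against 77.4% of all genes. Calls were thus frequent across the transcriptome, and the numbers called among 10 genes are near that background. The median log2FC of the 10 genes was 0.42 and that of all tested genes -0.01, and the median absolute log2FC was 1.03 and 0.65. CPM values below are on library sizes scaled by TMM factors.

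**Figure D1:**
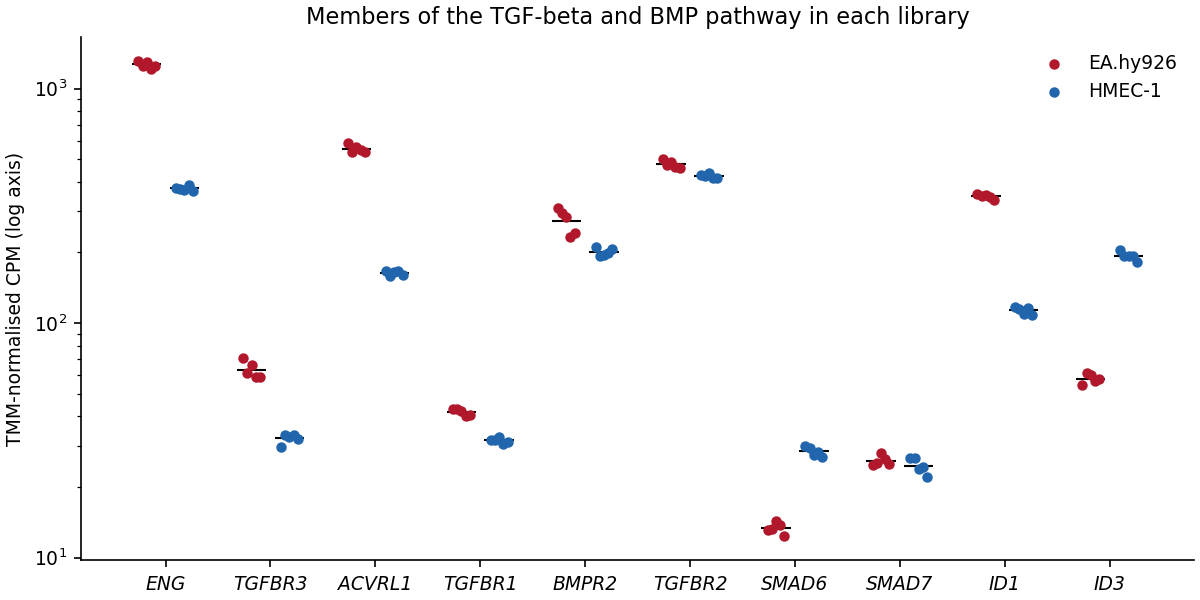
CPM (log axis) of the 10 genes in each of the 5 EA.hy926 (red) and 5 HMEC-1 (blue) libraries, with a line at each mean. The points of the lines are separate for every gene except SMAD7, with ENG near 1267 and 375 CPM and ID3 as the clearest reversal, near 58.0 and 193 CPM.

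ENG, endoglin, is the endothelial co-receptor that presents BMP9 and BMP10 to ACVRL1. Its level was 1316, 1253, 1300, 1215 and 1251 CPM in the 5 EA.hy926 libraries and 378, 374, 369, 388 and 366 CPM in those of HMEC-1. All EA.hy926 libraries lay far above all HMEC-1 libraries, with means of 1267 ± 41.0 and 375 ± 8.45 CPM (SD, n = 5 each). ENG was therefore 3.38-fold higher in EA.hy926 (log2FC = 1.76, SE 0.027, edgeR adjusted p = 4.0e-23). An antisense lncRNA covers 8.15% of its exonic bases on chromosome 9, and whether the counting used strand is not given, so a small part of its count is uncertain.

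TGFBR3, betaglycan, is the broadly expressed co-receptor that binds all TGF-beta isoforms. Values were 70.9, 61.3, 66.5, 59.1 and 58.9 CPM in EA.hy926 and 29.7, 33.2, 32.6, 33.2 and 32.2 CPM in HMEC-1. The groups did not overlap, with EA.hy926 replicate 1 the highest and HMEC-1 replicate 1 the lowest of the 10 libraries. With means of 63.4 ± 5.24 and 32.2 ± 1.45 CPM, TGFBR3 passed the adjusted p but lay just under the fold threshold (log2FC = 0.98, SE 0.048, edgeR adjusted p = 3.3e-14). Leaving out single libraries moved its log2FC between 0.93 and 1.01, and it passed both thresholds without EA.hy926 replicate 4 and without EA.hy926 replicate 5.

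ACVRL1, the type I receptor ALK1, is largely restricted to endothelium and passes BMP9 and BMP10 signals to SMAD1, SMAD5 and SMAD9. It was measured at 588, 535, 562, 548 and 536 CPM in EA.hy926 and at 167, 159, 165, 167 and 161 CPM in HMEC-1. The lowest EA.hy926 library was above every HMEC-1 library, and the means were 554 ± 22.2 and 164 ± 3.87 CPM. The difference was 3.38-fold (log2FC = 1.76, SE 0.029, edgeR adjusted p = 1.6e-22), close to that of its co-receptor ENG.

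TGFBR1, the type I receptor ALK5 of the TGF-beta branch, was among the 4 lowest of the genes per exon length in both lines. It reached 43.0, 43.0, 42.3, 40.2 and 40.3 CPM in EA.hy926 and 31.8, 31.8, 32.7, 30.6 and 31.2 CPM in HMEC-1. These groups were tight and separate, with means of 41.7 ± 1.40 and 31.6 ± 0.794 CPM. Its log2FC was 0.40 (SE 0.035, edgeR adjusted p = 6.3e-10), less than the fold threshold.

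BMPR2, the type II receptor for BMPs, had the widest relative spread of the 10 genes in EA.hy926, though not in HMEC-1. Libraries of EA.hy926 gave 310, 295, 284, 234 and 241 CPM, and those of HMEC-1 gave 212, 193, 196, 199 and 208 CPM. EA.hy926 replicates 4 and 5 lay well below the other 3 but still above HMEC-1. Replicates 4 and 5 were also the lowest EA.hy926 libraries for ENG, TGFBR1, TGFBR2, TGFBR3 and ID1, but not for ACVRL1, SMAD6, SMAD7 or ID3. The coefficient of variation of BMPR2 in EA.hy926 was 12.3%, where counting alone gives 1.01%, and it was 4.01% in HMEC-1. The means of 273 ± 33.7 and 202 ± 8.08 CPM differed with a log2FC of 0.44 (SE 0.058, edgeR adjusted p = 4.8e-07).

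TGFBR2, the type II receptor for TGF-beta, had, per exon length, the higher level of the 2 type II receptors in both lines. The 5 values were 502, 471, 487, 465 and 459 CPM in EA.hy926 and 428, 422, 435, 416 and 416 CPM in HMEC-1. Although the ranges did not meet, the means of 477 ± 17.6 and 423 ± 7.93 CPM gave the smallest difference among the receptors (log2FC = 0.17, SE 0.027, edgeR adjusted p = 4.5e-06). This call depended on the scaling, since libraries scaled by their totals alone gave a log2FC of 0.04 and the edgeR adjusted p was 0.181.

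SMAD6, the inhibitory SMAD whose window above holds the palindrome, was the lowest of the 10 per exon length in EA.hy926. Its level was 13.1, 13.2, 14.3, 13.7 and 12.3 CPM there and 30.0, 29.4, 27.5, 28.2 and 26.9 CPM in HMEC-1. Every EA.hy926 library was below every HMEC-1 library, with means of 13.3 ± 0.742 and 28.4 ± 1.28 CPM. SMAD6 was lower in EA.hy926 past both thresholds (log2FC = -1.09, SE 0.048, edgeR adjusted p = 4.8e-15).

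SMAD7, the inhibitory SMAD that also recruits SMURF ubiquitin ligases to TGFBR1, gave 24.7, 25.2, 27.99, 26.4 and 25.2 CPM in EA.hy926 and 26.5, 26.5, 23.9, 24.3 and 22.1 CPM in HMEC-1. The groups overlapped, with means of 25.9 ± 1.34 and 24.7 ± 1.90 CPM. No difference was detected (log2FC = 0.07, SE 0.051, edgeR adjusted p = 0.195), and with library totals the sign turned (log2FC = -0.06, edgeR adjusted p = 0.256). SMAD6 and SMAD7 therefore differed from each other in how they compared between the lines, which the within-library ratio below tests directly.

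ID1 and ID3 encode proteins that bind basic helix-loop-helix factors and keep them off DNA, and both are induced through SMAD1 and SMAD5. ID1 was at 356, 349, 351, 344 and 336 CPM in EA.hy926 and at 117, 115, 109.5, 116 and 108 CPM in HMEC-1. All values of EA.hy926 were higher, with means of 347 ± 7.45 and 113 ± 4.22 CPM and a 3.06-fold difference (log2FC = 1.61, SE 0.028, edgeR adjusted p = 3.9e-22). ID3 ran the other way, at 54.3, 61.1, 60.3, 56.8 and 57.5 CPM in EA.hy926 and 204, 194, 194, 192 and 182 CPM in HMEC-1. Its groups were equally separate, with means of 58.0 ± 2.73 and 193 ± 7.93 CPM, and ID3 was 3.33-fold lower in EA.hy926 (log2FC = -1.74, SE 0.035, edgeR adjusted p = 4.1e-21). These 2 targets of the same SMADs were thus on opposite sides of the comparison.

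**Figure D2:**
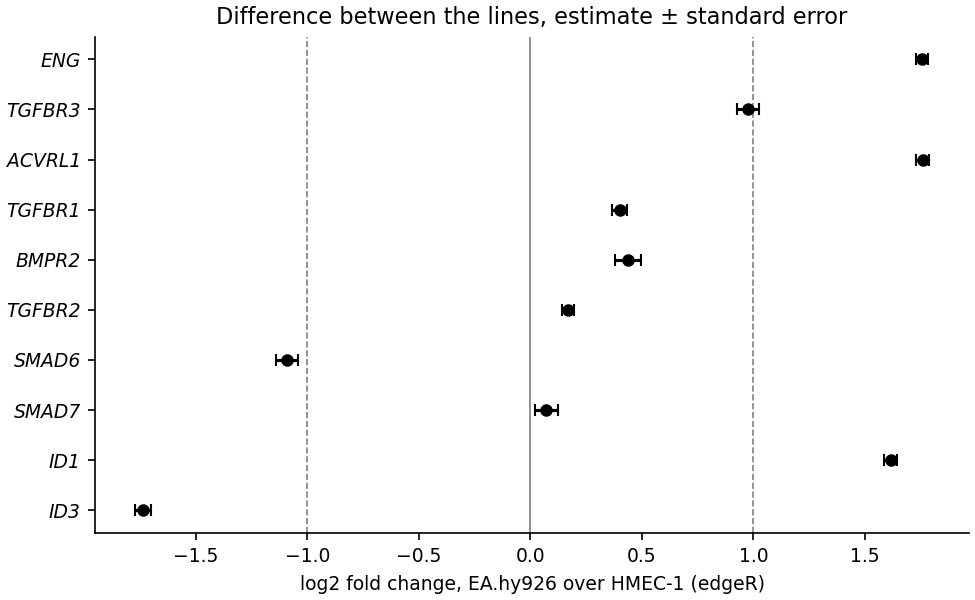
Log2FC of each gene (EA.hy926 over HMEC-1) from edgeR, as estimate ± standard error from 5 libraries per line, with dashed lines at the fold threshold of 1 in each direction. ENG, ACVRL1 and ID1 lie between 1.61 and 1.76, TGFBR3 at 0.98, and SMAD6 and ID3 at -1.09 and -1.74.

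Genes of the same role were next compared within each library, as ratios of counts per exon length, which do not depend on how libraries are scaled to each other. In all 5 pairs the ratio differed between the lines without overlap. Each gave p = 0.00794 by a two-sided exact permutation test, also after adjustment over the 5 pairs (adjusted p = 0.00794). That is the smallest value that 5 libraries against 5 allow. CPM ranges of the lines did not overlap for 77.4% of all genes. No such share was taken over other pairs of genes, so separation alone does not set these 5 apart. The largest change was between the ID genes. The ID1 to ID3 ratio was 7.94, 6.92, 7.07, 7.34 and 7.10 in EA.hy926 and 0.698, 0.721, 0.686, 0.733 and 0.721 in HMEC-1. ID1 thus exceeded ID3 in every EA.hy926 library and lay below it in every HMEC-1 library, a 10.2-fold difference in ratio (log2 difference 3.35, SE 0.039).

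Among the inhibitory SMADs, SMAD7 exceeded SMAD6 in both lines, but by more in EA.hy926. The SMAD6 to SMAD7 ratio ranged between 0.226 and 0.244 in EA.hy926 and between 0.510 and 0.563 in HMEC-1, with geometric means of 0.237 and 0.532 (log2 difference -1.16, SE 0.031). Of the type I receptors, ACVRL1 outweighed TGFBR1 in both lines, by 17.9 to 19.6 times in EA.hy926 and 7.15 to 7.84 times in HMEC-1, and this ratio was 2.56-fold higher in EA.hy926 (log2 difference 1.36, SE 0.034).

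The type II receptors showed the smallest shift. BMPR2 stood at 0.276 to 0.344 of TGFBR2 in the libraries of EA.hy926 and at 0.247 to 0.273 in those of HMEC-1, with geometric means of 0.312 and 0.261 (log2 difference 0.26, SE 0.070). The ranges were separated by a narrow margin, and EA.hy926 replicates 4 and 5, which had the lowest BMPR2, lay nearest to HMEC-1. Of the co-receptors, ENG exceeded TGFBR3 by 41.4 to 47.4 times in EA.hy926 and by 25.2 to 28.4 times in HMEC-1, a 1.72-fold difference (log2 difference 0.78, SE 0.047).

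**Figure D3:**
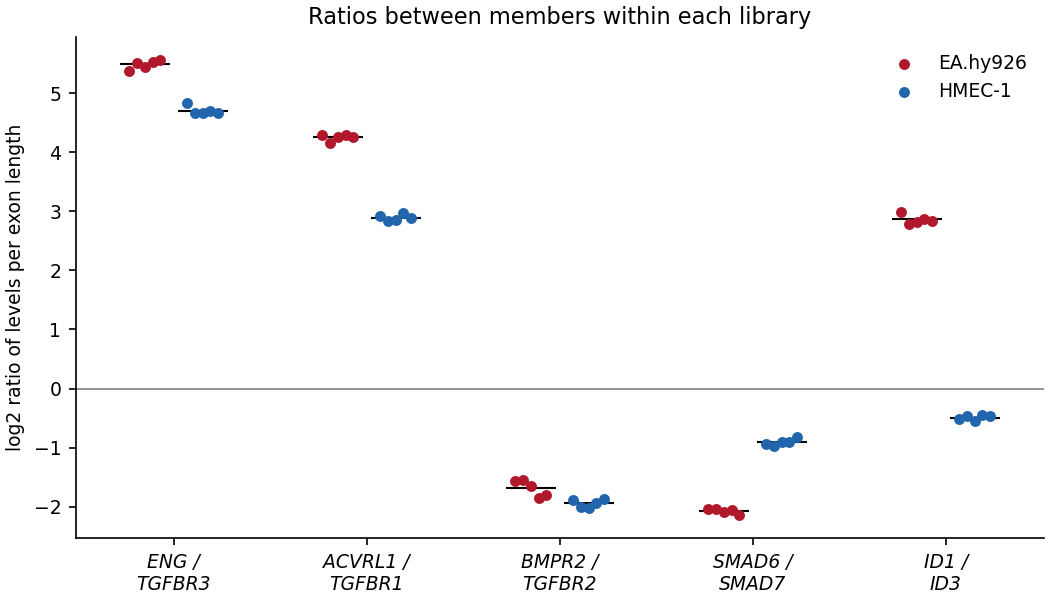
Log2 ratio of the levels per exon length of 5 pairs of genes within each library, for EA.hy926 (red) and HMEC-1 (blue), with a line at each mean and a grey line where both genes are equal. The lines are separate in all 5 pairs, and only the ID1 to ID3 ratio crosses equality, from a mean of 2.86 in EA.hy926 to -0.49 in HMEC-1.

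Levels of the 10 genes were ordered as CPM per kilobase of exon. EA.hy926 had ENG on top at 330 ± 10.7, followed by ID1 at 281 ± 6.04, ACVRL1 at 99.5 ± 3.99, TGFBR2 at 69.6 ± 2.56, ID3 at 38.8 ± 1.83 and BMPR2 at 21.8 ± 2.69 CPM per kilobase. TGFBR3 at 7.39 ± 0.611, SMAD7 at 6.56 ± 0.338, TGFBR1 at 5.23 ± 0.175 and SMAD6 at 1.56 ± 0.0868 were the 4 lowest. Ranges of neighbours in this order were separate in 8 of 9 cases, the exception being TGFBR3 and SMAD7. The highest level was 212 times the lowest.

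In HMEC-1 the order was led by ID3 at 129 ± 5.30 CPM per kilobase, ahead of ENG at 97.7 ± 2.20, ID1 at 91.9 ± 3.42, TGFBR2 at 61.8 ± 1.16, ACVRL1 at 29.4 ± 0.695 and BMPR2 at 16.1 ± 0.646. The lower end comprised SMAD7 at 6.25 ± 0.481, TGFBR1 at 3.96 ± 0.0994, TGFBR3 at 3.75 ± 0.169 and SMAD6 at 3.32 ± 0.150, and neither TGFBR1 and TGFBR3 nor TGFBR3 and SMAD6 could be separated by their ranges. ACVRL1 thus stood above TGFBR2 in EA.hy926 and below it in HMEC-1. The span from highest to lowest was narrower, at 38.9 times. Both orders kept ENG and ID1 among the 3 highest and SMAD6 at the bottom, the last in HMEC-1 with these exon lengths but not with those of the longest transcripts.

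**Figure D4:**
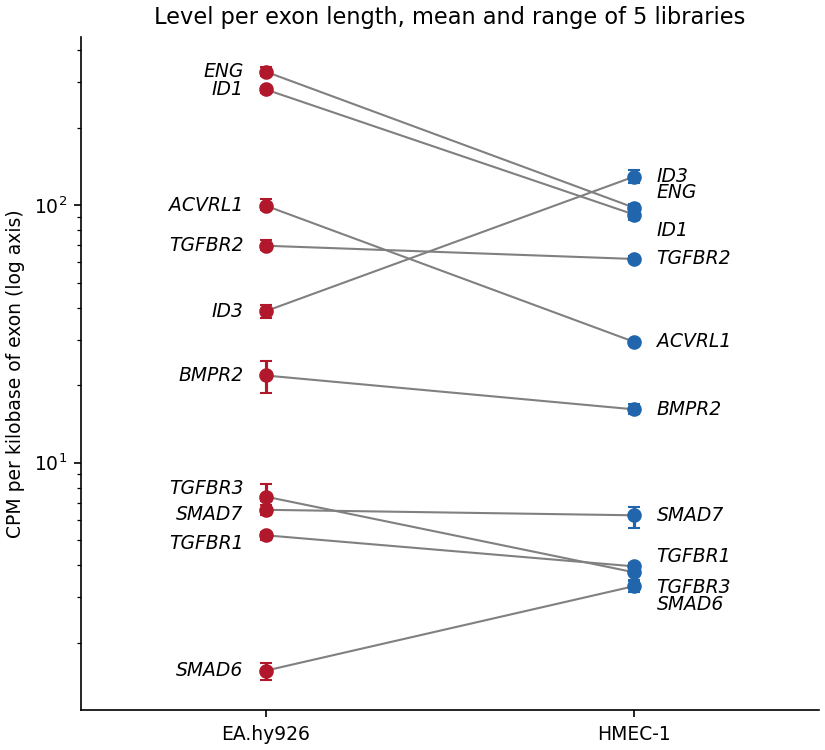
CPM per kilobase of exon (log axis) of the 10 genes in EA.hy926 (left) and HMEC-1 (right), as the mean of 5 libraries with bars from the lowest to the highest, joined by a line for each gene; names beside close points are set apart. ID3 climbs from 38.8 to 129 while ENG, ID1 and ACVRL1 descend, and the span is 212 times in EA.hy926 and 38.9 times in HMEC-1.

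The rest of the pathway was described from 7 lists of ligands, modulators, receptors, SMADs, regulators and targets, 89 genes in all, of which 69 were tested. Past both thresholds 13 were higher and 26 lower in EA.hy926, together 56.5% of those tested, where 35.5% of all tested genes passed both, 19.1% higher and 16.4% lower. Past the adjusted p 25 were higher and 39 lower, where the shares of all genes were 42.6% and 43.3%. These shares of all genes are the background for each list below. Where a gene had at most 3 counts in each EA.hy926 library, only a lower bound of the fold, set by the CPM that 3 counts make, is given.

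Ligands differed in kind. Of 19, 10 were tested, 2 were higher and 4 lower past both thresholds (35.5% of all genes passed both), and the median log2FC was -0.66, against -0.01 for all genes. TGFB1, the major TGF-beta isoform, was at 311 ± 21.8 CPM in EA.hy926 and 177 ± 1.70 in HMEC-1 (log2FC = 0.81, SE 0.036, edgeR adjusted p = 6.4e-15). BMP6, a BMP that endothelium secretes and that regulates hepatic hepcidin, was higher in EA.hy926 at 108 ± 2.13 against 49.9 ± 1.80 CPM (log2FC = 1.11, SE 0.029, edgeR adjusted p = 5.3e-19), although libraries scaled by their totals alone took it to 0.98, under the fold threshold. BMP4, a BMP of mesodermal and vascular development, was much lower in EA.hy926, at 0.921 ± 0.142 against 43.9 ± 1.28 CPM (log2FC = -5.57, SE 0.068, edgeR adjusted p = 1.1e-24), and so was TGFB2, at 2.79 ± 0.340 against 60.9 ± 1.08 CPM (log2FC = -4.45, SE 0.055, edgeR adjusted p = 1.4e-24). Other annotated RNAs cover 16.3% of the exonic bases of BMP4 and 34.2% of those of TGFB2. GDF2 and BMP10, the ligands of the ENG and ACVRL1 branch, had 0 counts in all 10 libraries, which leaves at most 3 counts, or 0.0904 CPM, in any of them.

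Of 19 genes that store ligands or block them, 14 were tested, 2 were higher and 6 lower past both thresholds, with a median log2FC of 0.08. THBS1, thrombospondin that activates latent TGF-beta, and the follistatin-like FSTL1 were at 2499 ± 82.7 and 1631 ± 38.7 CPM in EA.hy926 and 1724 ± 38.6 and 1341 ± 20.4 CPM in HMEC-1. Both were higher in EA.hy926 past the adjusted p only (log2FC = 0.54 and 0.28, edgeR adjusted p = 2.1e-14 and 2.0e-10). The secreted BMP antagonists GREM1 and CHRD were the most different. GREM1 was at 1.39 ± 0.118 against 163 ± 7.82 CPM (log2FC = -6.87, SE 0.056, edgeR adjusted p = 2.3e-27), and CHRD, with 0 to 3 counts in the EA.hy926 libraries and a mean of 13.04 ± 0.536 CPM in those of HMEC-1, was lower by at least 144-fold.

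Among the 12 other receptors and co-receptors 7 were tested, 2 were higher and 2 lower past both thresholds, with a median log2FC of -0.49. ACVR1B (ALK4), an activin type I receptor, was at 79.1 ± 1.92 against 40.9 ± 0.491 CPM (log2FC = 0.95, SE 0.028, edgeR adjusted p = 3.9e-18), past the adjusted p only. BMPR1A (ALK3), the widely used BMP type I receptor, was lower at 24.9 ± 0.785 against 55.9 ± 0.743 CPM (log2FC = -1.16, SE 0.032, edgeR adjusted p = 1.5e-18), unlike ACVRL1. ACVR2A, a type II receptor for activins and BMPs, was higher at 11.5 ± 1.00 against 1.80 ± 0.276 CPM (log2FC = 2.67, SE 0.096, edgeR adjusted p = 1.4e-16). BAMBI, a decoy receptor without a kinase domain, was lower at 1.28 ± 0.322 against 5.84 ± 0.377 CPM (log2FC = -2.18, SE 0.13, edgeR adjusted p = 5.7e-13).

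All 6 receptor-regulated and common SMADs were tested, with 1 higher and 2 lower past both thresholds and a median log2FC of -0.39. SMAD3, of the TGF-beta branch, was higher in EA.hy926 at 315 ± 8.37 against 154 ± 3.11 CPM (log2FC = 1.03, SE 0.025, edgeR adjusted p = 1.7e-19), which libraries scaled by their totals alone took to 0.90, under the fold threshold. Of the SMADs downstream of ACVRL1, SMAD5 showed no detected difference at 125.7 ± 7.24 against 128 ± 1.95 CPM (log2FC = -0.02, SE 0.033, edgeR adjusted p = 0.484). SMAD1 and SMAD9 were lower in EA.hy926, at 5.02 ± 0.451 against 13.7 ± 0.705 CPM (log2FC = -1.45, edgeR adjusted p = 1.4e-14) and 8.52 ± 0.676 against 28.1 ± 1.96 CPM (log2FC = -1.72, edgeR adjusted p = 7.5e-17). Higher ACVRL1 and ENG in EA.hy926 thus stood beside lower SMAD1 and SMAD9 and no detected difference in SMAD5.

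The 15 intracellular regulators were all tested, 5 were higher and 1 lower past both thresholds, a share near the 35.5% of all genes, and the median log2FC was 0.17. FKBP1A, the immunophilin that binds unstimulated type I receptors, was higher at 2360 ± 88.9 against 469 ± 12.8 CPM (log2FC = 2.33, SE 0.029, edgeR adjusted p = 1.4e-24), with 12.7% of its exonic bases covered by other genes. SMURF2, a ubiquitin ligase that works with SMAD7 on receptors, was higher at 494 ± 9.33 against 134 ± 1.60 CPM (log2FC = 1.88, SE 0.024, edgeR adjusted p = 1.8e-24). The related membrane proteins PMEPA1 and LDLRAD4, which hold back SMAD2 and SMAD3, differed in opposite directions. PMEPA1 had 1 to 3 counts in the EA.hy926 libraries and a mean of 17.8 ± 1.56 CPM in those of HMEC-1, at least 197-fold lower in EA.hy926. LDLRAD4 was at 2.73 ± 0.357 CPM in EA.hy926 and had 1 to 4 counts in HMEC-1 (log2FC = 5.56, SE 0.26, edgeR adjusted p = 1.4e-14).

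Of 6 further BMP targets 5 were tested, 1 was higher and 3 lower past both thresholds (19.1% and 16.4% of all genes), with a median log2FC of -1.21. ATOH8, a transcription factor downstream of ACVRL1, was lower past the adjusted p only, at 21.7 ± 0.701 against 39.1 ± 1.42 CPM (log2FC = -0.85, SE 0.038, edgeR adjusted p = 7.9e-15). ID2 was lower at 3.38 ± 0.571 against 7.81 ± 1.10 CPM (log2FC = -1.21, SE 0.11, edgeR adjusted p = 1.9e-09), as ID3 was and ID1 was not. ID4, named after its values were seen, had too few counts to be tested. It was at 0 in every EA.hy926 library and at 6 to 28 counts in those of HMEC-1, at least 4.08-fold lower in EA.hy926. TMEM100, an endothelial gene induced through ACVRL1, had 0 counts in the EA.hy926 libraries and a mean of 9.71 ± 0.674 CPM in those of HMEC-1, at least 107-fold lower in EA.hy926. HEY2 had 0 to 1 count in EA.hy926 and was at least 10.6-fold lower there. The 1 target that was higher in EA.hy926 was HEY1, named after its values were seen. It was at 5.17 ± 0.492 against 1.03 ± 0.226 CPM (log2FC = 2.33, SE 0.13, edgeR adjusted p = 5.3e-13).

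All 12 TGF-beta targets were tested, none was higher and 8 were lower past both thresholds (16.4% of all genes were lower), and the median log2FC was -2.74. FN1, fibronectin, was lower at 539 ± 19.2 against 4953 ± 163 CPM (log2FC = -3.20, SE 0.030, edgeR adjusted p = 1.7e-26). The type I collagen genes were near the floor in EA.hy926. COL1A1 was at 0.318 ± 0.0977 against 358 ± 9.29 CPM (log2FC = -10.13, SE 0.062, edgeR adjusted p = 2.6e-29), and COL1A2, with 0 to 3 counts in the EA.hy926 libraries and a mean of 108 ± 1.80 CPM in those of HMEC-1, was lower in EA.hy926 by at least 1198-fold. These collagens are also products of fibroblasts. Of the mural and fibroblast markers, LUM was at 0 throughout. PDGFRA was at 0 in every EA.hy926 library, while each HMEC-1 library held between 2 and 7 counts of it. The other markers of that list ran both ways. PDGFRB was lower in EA.hy926, at 0.931 ± 0.194 against 23.2 ± 1.29 CPM. CNN1 was lower there by at least 6.23-fold, and MYH11 was lower past the adjusted p only (log2FC = -0.50). ACTA2 was higher at 6.26 ± 0.613 against 0.973 ± 0.174 CPM, and RGS5 at 430 ± 23.5 against 5.05 ± 0.221 CPM. The markers given here were named after their values were seen, and their part in the difference was not tested.

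**Figure D5:**
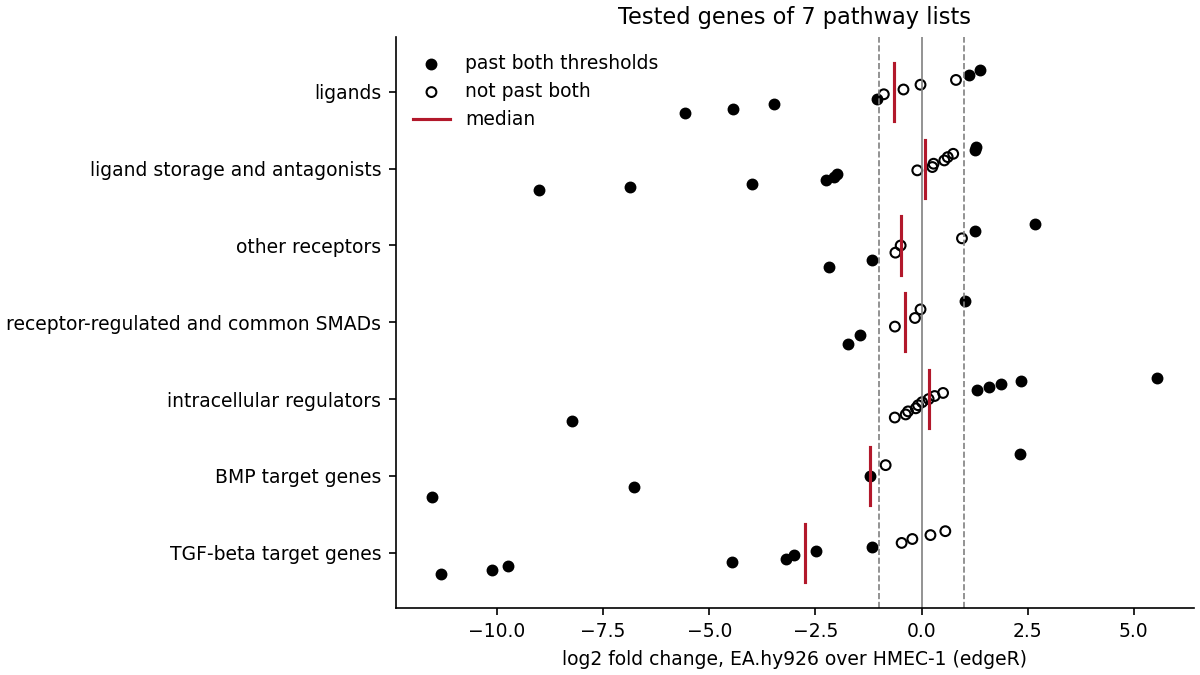
Log2FC (EA.hy926 over HMEC-1, edgeR) of the 69 tested genes in the 7 pathway lists, filled where past both thresholds (dashed lines at the fold threshold of 1), with a red line at the median of each list. Points below -6 other than GREM1 and COL1A1 are genes at or near 0 counts in EA.hy926, whose fitted values are no bound, and the TGF-beta targets have the lowest median, -2.74.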

How the data were processed

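RNA-seq libraries of the untreated lines EA.hy926 and HMEC-1, 5 of each, were grouped by the cell line in the sample labels. The authors selected mRNA with oligo(dT), aligned reads to GRCh38 with HISAT2 and deposited raw read counts per gene. The counter was HTSeq according to the methods and featureCounts according to the submitters' processing notes, which also name fastp and DESeq2, and annotation release and strand setting were not given in the sources used here.

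Counts were filtered with filterByExpr (minimum count 10, total 15), scaled by TMM factors and tested with glmQLFit and glmQLFTest of edgeR 4.0.16 (R 4.3.3), with Benjamini-Hochberg adjustment over 16310 genes. The standard error of a log2FC is its size divided by the square root of F. Exon lengths and overlaps came from GENCODE 44 (56434 of 60448 identifiers matched). Ratios used counts plus 0.5 and exact permutation tests (scipy 1.17.1). P-values rest on 5 cultures of 1 line each. A floor of 3 counts covers counting error only.

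Members and lists were chosen with earlier results of these data known. Of each list, the 2 genes with the highest mean CPM and the 2 with the largest absolute log2FC past both thresholds (at least 10 counts in every library of a line) were named, except for 1 gene that is not reported here. Alternatives were DESeq2 1.42.0, limma-voom (limma 3.58.1), RLE factors, library totals, other filters, glmTreat, a replicate block, another pseudocount (2), longest transcript length and leaving out each library. The tests were checked on simulated counts in which few genes changed, with equal numbers in each direction. That setting cannot check the scaling of libraries where most genes differ, as here.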

Additional observations from a re-analysis of the deposited data

Results flagged for a closer look

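Single libraries stood apart within their group, by Dixon's criterion for 5 samples, in 3 of the 86 groups of values examined, where chance marks about 1 in 20. The log2 ratio of ENG to TGFBR3 per exon length was 4.83 in HMEC-1 replicate 1 and 4.66 to 4.70 in the other HMEC-1 libraries, all below EA.hy926. BMP4 was at 46.1 CPM in HMEC-1 replicate 2 and at 42.9 to 43.6 CPM in the others. HEY2 was at 0.0271 CPM, a single count, in EA.hy926 replicate 1 and at 0 in the other EA.hy926 libraries.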

How the results depend on the processing

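Direction and side of the adjusted p threshold were unchanged in 174 of 180 repeats for the 10 members (18 alternatives each) and in 488 of 497 for the 28 other pathway genes that the naming rule selected. Outside glmTreat, the fold threshold was crossed 2 times by a member (TGFBR3, without EA.hy926 replicate 4 and without replicate 5) and 2 times by the other genes, BMP6 (0.98) and SMAD3 (0.90) with library totals, which left 2 SMADs past both thresholds, from 3. Library totals, which lowered the median log2FC of all genes by 0.13, ended the call of TGFBR2 (0.04, edgeR adjusted p = 0.181), turned SMAD7 to -0.063 and brought SMAD5 past the threshold (-0.16, edgeR adjusted p = 8.39e-05). SMAD5 also turned, to 0.010, without EA.hy926 replicate 5, and ranged from -0.047 to 0.010 as single libraries were left out. A glmTreat test against a log2FC of 1 by construction called no gene below that size, and lost SMAD3 as well (adjusted p = 0.115). It called 5 ligands, from 6, and 7 storage and antagonist genes, from 8. With at least 10 counts in every library, genes near 0 in one line drop out, so calls past both thresholds fell to 2 of the BMP targets (3 past the adjusted p) and 5 of the TGF-beta targets, and over all genes to 3255, from 5784, against 9312 with no filter. BMP targets past both thresholds numbered 5 with no filter, and 4 to 5 as single libraries were left out. With longest transcript lengths 8 of 10 members kept their rank in HMEC-1, where TGFBR1 and SMAD6 exchanged places.

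Leaving out single libraries gave 9 members past the adjusted p each time and 5 to 6 past both thresholds, TGFBR3 being the added one (log2FC up to 1.01). It gave differences in log2 ratio of 0.76 to 0.81 for ENG to TGFBR3, 1.34 to 1.38 for ACVRL1 to TGFBR1, 0.22 to 0.30 for BMPR2 to TGFBR2, -1.18 to -1.14 for SMAD6 to SMAD7 and 3.32 to 3.37 for ID1 to ID3.

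Replicate numbers are shared between the lines, but same-numbered libraries did not deviate together (correlations -0.023 to 0.039), so no pairing by number was detected. A replicate block left 13935 genes past the adjusted p, against 13997. For the ratios with a replicate block the sign-flip test of 5 pairs cannot go below 0.0625, and each of the 5 (0.78, 1.36, 0.26, -1.16 and 3.35, in the order above) had an exact adjusted p of 0.0625. Depth limited only genes near the floor, for which lower bounds are given.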
